A study of Mus musculus with 36 samples.

Results

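Podoplanin, CD44, connexin 43, the PIEZO channels and 5 further genes that cells of bone use to hold on to their matrix, to couple to one another and to sense load were followed in the tibia of mice that model Hutchinson-Gilford progeria syndrome, a disorder of premature aging. The 10 genes, Pdpn, Cd44, Gja1, Panx3, Piezo1, Piezo2, Trpv4, Ptgs2, Yap1 and Wwtr1, were taken by symbol from the 56246 genes of a table of TPM, reads corrected for gene length and for the total of the library. All 10 were among the 22546 genes tested. The study asked whether a single treatment with an adenine base editor (ABE), an enzyme that rewrites a chosen base pair without cutting both DNA strands, changes the bone disease of these mice. RNA was sequenced from tibiae at 6 months of age in 36 mice.

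Wild-type mice, marked as non-treated, formed the first group. Mice of both other groups were LMNA G608G/G608G, which means that they carried, as a double copy in a C57BL/6J line, a bacterial artificial chromosome of human DNA with LMNA bearing the G608G variant and a second human gene, RAB25. One of these groups was injected with saline behind the eye at day 14 of life (saline-treated mice) and the other, in the same way and on the same day, with ABE carried by the viral capsid AAV9 (ABE-treated mice). Each group held 12 mice, 6 females and 6 males, and each mouse gave 1 library. Epiphyses and marrow had been removed, so mainly cortical bone was sampled. The transgene is carried by every cell of these mice and not by bone alone. Wild-type mice had identifiers of another number series than the transgenic mice, although the study calls the mice littermates, so series of identifier and genotype cannot be told apart. Nor can injection and genotype be told apart against wild type, since only the transgenic mice are labelled as injected. The comparisons of saline-treated and of ABE-treated mice with wild type used the same 12 wild-type libraries.

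Osteocytes are cells buried in bone that extend dendrites through fine canals, and podoplanin and CD44 sit on their surface where the dendrites meet the matrix. Gap junctions of connexin 43 link neighbouring cells, PIEZO and TRPV4 channels admit calcium when the membrane is stretched or fluid flows past it, and prostaglandin made by cyclooxygenase 2 is an early signal released by loaded bone cells. YAP and TAZ, the products of Yap1 and Wwtr1, move between cytoplasm and nucleus with tension on the cell and switch on genes through TEAD factors, while the Hippo kinases hold them back. None of the 10 genes is expressed by osteocytes alone, and in bulk tissue fewer cells of a type cannot be told apart from less RNA per cell.

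Libraries held between 48064068 and 116206662 reads on genes, as inferred from the TPM values. Levels are given as rescaled TPM, TPM divided by 1 factor per library so that the median ratio of genes between libraries is 1. These factors lay between 0.219 and 1.57, and the lowest belonged to ABE-treated replicate 1, a female that stood apart. Differences between groups are given on the scale of log2(rescaled TPM + 0.1) with their standard error (SE), and the adjusted p is that of limma with sex as a covariate after Benjamini-Hochberg adjustment over all genes tested, called at 0.05. Osteocyte markers were present in every library, with a summed level of 24.2 to 65.5 rescaled TPM among wild-type mice, 191 to 520 with saline and 192 to 374 with ABE, and 7 of 11 of them rose in saline-treated and 8 of 11 in ABE-treated mice. Of 18 skeletal muscle genes 13 rose in saline-treated mice and 18 in ABE-treated mice against wild type, and 15 were higher in ABE-treated than in saline-treated mice. Their summed level ran from 213 to 3194 in wild-type, 356 to 8306 in saline-treated and 1131 to 13454 in ABE-treated libraries. Muscle RNA thus differed both between wild-type and LMNA G608G/G608G mice and between the treatments. All 10 chondrocyte markers fell in saline-treated and 9 of 10 in ABE-treated mice. The summed level of 7 pan-leukocyte genes had a median of 115 among wild-type libraries, 108 with saline and 77.0 with ABE, and 5 of these genes fell against wild type with ABE. Of the markers in all these lists, Ccl21a of the lymphatic endothelial list was at 0 in every library. Positions of genes are on build GRCm38 and span the whole gene, exons and introns.

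Pdpn, Cd44, Gja1, Yap1, Wwtr1 and Ptgs2 rose in both LMNA G608G/G608G groups against wild type. Trpv4 fell in saline-treated mice, Piezo1 fell and Piezo2 rose in ABE-treated mice, and Panx3 passed the test nowhere. In saline-treated mice 7 of 10 genes were called, 6 higher and 1 lower, where 50.0% of all genes tested were called (25.3% higher and 24.7% lower), and the median difference over the 10 was 0.62 against 0.01 over all genes. In ABE-treated mice 8 of 10 were called against wild type, 7 higher and 1 lower, beside a background of 66.8% (32.9% higher and 34.0% lower), with a median difference of 0.67 against -0.02 over all genes. Between the treatments, 3 of 10 genes, Piezo2, Yap1 and Wwtr1, were called, all higher in ABE-treated mice, where 43.1% of all genes were called (21.5% higher). The counts of called genes as such were thus near those of genes at large, and the direction was mostly upward. Ptgs2 is among the rises over wild type, although it passed the filter only through the LMNA G608G/G608G groups. The groups did not overlap for Cd44 between saline-treated and wild-type mice, nor for Ptgs2 between ABE-treated and wild-type mice, as for 6.48% (2.63% higher and 3.85% lower) and 8.49% (3.75% higher and 4.74% lower) of all genes in these comparisons. Every member overlapped between the treatments, where 0.0310% of all genes did not (0.0222% higher and 0.00887% lower). The same tests were run on TPM as deposited, where the median gene moved by -0.15, -0.49 and -0.31 in the 3 comparisons in this order.

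**Figure D1:**
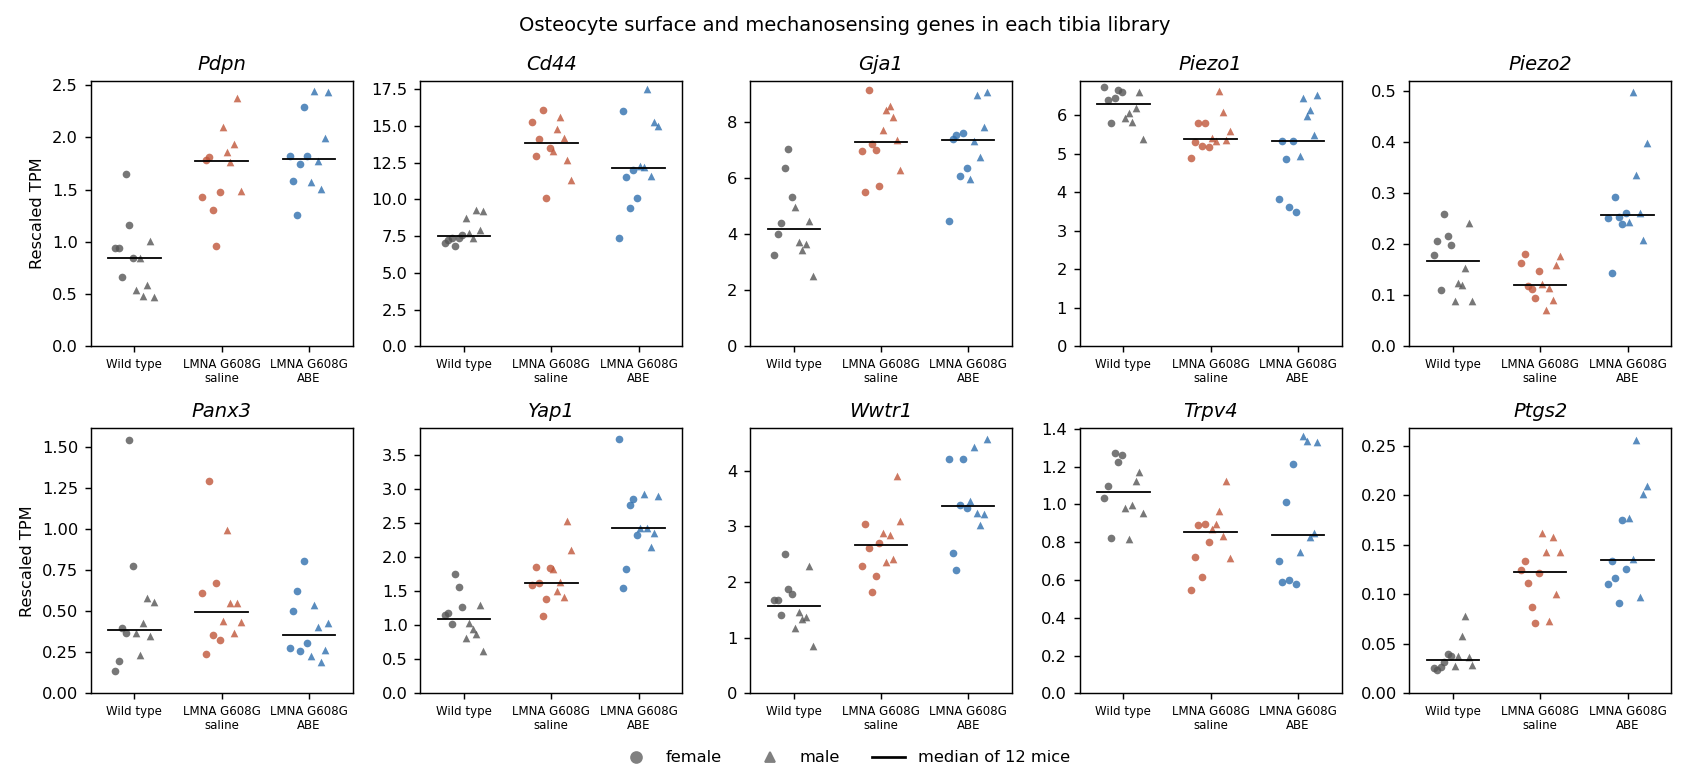
Rescaled TPM of each gene (vertical axes, from 0 and with a range of their own) in the 12 libraries of each group (horizontal axis), with circles for females, triangles for males and a bar at the median. All saline-treated libraries lay above all wild-type libraries for Cd44 and all ABE-treated above all wild-type libraries for Ptgs2, whereas the groups overlapped for the other genes in these comparisons.

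In order of their mean level per length, Cd44 came first with 11.3 rescaled TPM over the 36 libraries, then Gja1 with 6.29 and Piezo1 with 5.64. Wwtr1 at 2.59, Yap1 at 1.78 and Pdpn at 1.46 formed the middle, and Trpv4 at 0.938, Panx3 at 0.488, Piezo2 at 0.192 and Ptgs2 at 0.103 were low. The order was not the same in every group. In wild-type mice Piezo1 stood second at 6.22 ± 0.424 (SD, n = 12), above Gja1 at 4.42 ± 1.31, and in saline-treated mice Gja1 stood second at 7.33 ± 1.13, above Piezo1 at 5.54 ± 0.474. Neighbours in the order whose means differed by less than the larger of their SDs were, in wild-type mice, Yap1 and Trpv4 (1.12 ± 0.318 and 1.06 ± 0.155), Trpv4 and Pdpn (0.844 ± 0.338 for the latter), Pdpn and Panx3 (0.494 ± 0.374 for the latter), and Panx3 and Piezo2 (0.165 ± 0.0593 for the latter). In saline-treated mice these were Yap1 and Pdpn (1.70 ± 0.363 and 1.69 ± 0.382), Trpv4 and Panx3 (0.823 ± 0.156 and 0.569 ± 0.301), and Piezo2 and Ptgs2 (0.129 ± 0.0358 and 0.119 ± 0.0311), and in ABE-treated mice Panx3 and Piezo2 (0.402 ± 0.186 and 0.282 ± 0.0922). Ptgs2 lay below the filter of 0.1 in wild-type mice (mean 0.0376) and was tested because of its level in the other groups.

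Pdpn (chr4:143267431-143299564, minus strand) encodes podoplanin, a sialoglycoprotein of osteocyte dendrites that is also found on lymphatic endothelium. Its level ran from 0.473 to 1.65 with a median of 0.846 in wild-type mice, from 0.959 to 2.38 with a median of 1.77 in saline-treated mice and from 1.26 to 2.44 with a median of 1.79 in ABE-treated mice. Every LMNA G608G/G608G library exceeded the wild-type median, and 7 saline-treated and 8 ABE-treated libraries exceeded the highest wild-type library. The mean rose 2.0-fold with saline (0.97, SE 0.15, adjusted p = 3.84e-06) and 2.19-fold with ABE (1.10, SE 0.15, adjusted p = 2.19e-07). Between the treatments the difference was 0.13 (95% interval -0.18 to 0.44, adjusted p = 0.51), on either side of 0. Of 4 lymphatic endothelial genes tested, 1 (Flt4, 0.32, adjusted p = 0.028) was higher and 3 were lower in saline-treated mice, and 3 were lower in ABE-treated mice. Sums of the list of 6 ran from 4.63 to 6.28 in wild-type, 3.21 to 7.19 with saline and 2.28 to 4.62 with ABE, and the part of these cells in the Pdpn result was not tested.

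Cd44 (chr2:102811141-102901665, minus strand) encodes the receptor for hyaluronan and osteopontin, carried by osteocytes, osteoclasts and leukocytes. Wild-type libraries lay close together, from 6.84 to 9.24 with a median of 7.49, saline-treated libraries ran from 10.1 to 16.1 with a median of 13.8 and ABE-treated libraries from 7.35 to 17.5 with a median of 12.1. All 12 saline-treated libraries and 11 of 12 ABE-treated libraries lay above the highest wild-type library, and the low ABE-treated library was replicate 1. The rise was 1.75-fold with saline (0.80, SE 0.09, adjusted p = 2.06e-08) and 1.61-fold with ABE (0.65, SE 0.09, adjusted p = 3.97e-07). The difference between treatments was not called (-0.15, 95% interval -0.34 to 0.04, adjusted p = 0.20), but it was on TPM as deposited (-0.53, adjusted p = 0.041). On that scale Cd44 differed from wild type by 0.07 in ABE-treated mice and was no longer called (adjusted p = 0.78), and it lay 0.56 above the median gene of that scale. Of the osteoclast list, 7 of 8 genes rose and 1 fell in saline-treated mice, and its summed level had a median of 166 among wild-type libraries, 414 with saline and 221 with ABE. The part of osteoclasts in the Cd44 result was not tested.

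Of 18 tested genes for partners of CD44 and podoplanin, these 2 included, 10 rose and 3 fell in saline-treated mice, 8 rose and 5 fell in ABE-treated mice, and 1 rose and 7 fell with ABE against saline. Counts of this and the later lists stand beside 50.0%, 66.8% and 43.1% of all genes called in these comparisons. Spp1, which encodes osteopontin, a ligand of CD44, went from 57.7 ± 18.5 in wild-type to 258 ± 89.7 with saline and 140 ± 45.5 with ABE, and was lower with ABE than with saline (-0.86, adjusted p = 0.0013). Mmp14, a membrane protease that cuts CD44, went from 5.51 ± 1.39 to 10.3 ± 1.71 and 9.76 ± 2.13. Clec1b, the platelet receptor for podoplanin, fell from 1.78 ± 0.304 to 0.860 ± 0.355 and 0.459 ± 0.310, and Itgb3, the integrin chain of platelets and osteoclasts that is also the osteoclast marker that fell, from 28.9 ± 4.02 to 19.2 ± 6.2 and 11.9 ± 5.76. The ligand and the protease were thus higher, and the platelet receptor lower, in both LMNA G608G/G608G groups than in wild-type mice.

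Gja1 (chr10:56377330-56402513, plus strand) encodes connexin 43, the main gap junction protein of bone cells. It ran from 2.52 to 7.03 with a median of 4.19 in wild-type, from 5.51 to 9.13 with a median of 7.29 in saline-treated and from 4.47 to 9.07 with a median of 7.36 in ABE-treated mice. Of each LMNA G608G/G608G group 7 libraries lay above the highest wild-type library. The rise was 1.66-fold with saline (0.75, SE 0.13, adjusted p = 1.14e-05) and 1.61-fold with ABE (0.70, SE 0.13, adjusted p = 1.4e-05), and the difference between treatments was -0.05 (95% interval -0.31 to 0.21). Its sign turned without ABE-treated replicate 1 (0.01), and on TPM as deposited the rises were 0.56 and 0.14 and were not called (adjusted p = 0.063 and 0.62).

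Panx3 (chr9:37659902-37669235, minus strand) encodes pannexin 3, a channel of osteoblasts and chondrocytes, and was the most variable of the 10. Wild-type libraries spanned 0.136 to 1.54, an 11.3-fold range, with a median of 0.382, saline-treated libraries 0.240 to 1.29 with a median of 0.494, and ABE-treated libraries 0.193 to 0.805 with a median of 0.357. The groups overlapped almost wholly. The differences were 0.25 (95% interval -0.26 to 0.76) for saline and -0.13 (-0.64 to 0.37) for ABE against wild type, and -0.39 (-0.89 to 0.12) between the treatments, so that changes of this size were not detectable with this spread. Within a library, the log2 ratio of Panx3 to Gja1 went from -3.07 ± 0.660 (SD, n = 12) in wild-type to -3.57 ± 0.445 with saline and -3.91 ± 0.446 with ABE. This ratio also moves with Gja1, which rose in both groups, and so is no separate result for Panx3. ABE-treated mice differed from wild type (-0.84, permutation test, two-sided, p = 0.0016, adjusted p = 0.0064 over 12 tests), saline-treated mice did not (-0.50, adjusted p = 0.072 by permutation), and neither did the treatments (-0.33, adjusted p = 0.11 by permutation).

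Of 23 connexin and pannexin genes 7 were expressed above the filter. In saline-treated mice 3 rose and 1 fell, in ABE-treated mice 4 rose and 1 fell, and with ABE against saline 2 were higher and 1 lower. Of all genes tested, 50.0%, 66.8% and 43.1% were called in these comparisons, so these counts were near those of genes at large. Gja1 was the only one that the rule for naming genes took from this list. Panx1, the pannexin of most tissues, named here with its values known, fell from 0.731 to 0.564 in saline-treated (-0.32, adjusted p = 0.00027) and 0.626 in ABE-treated mice (-0.21, adjusted p = 0.0101).

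Piezo1 (chr8:122481698-122551329, minus strand) encodes the large stretch-gated cation channel of bone cells, red cells and vessels. Its level varied little in wild-type mice, from 5.38 to 6.72 with a median of 6.30, and ran from 4.88 to 6.64 with a median of 5.38 in saline-treated and from 3.48 to 6.53 with a median of 5.34 in ABE-treated mice. Below the lowest wild-type library lay 6 saline-treated and 7 ABE-treated libraries. The mean was 6.44 in wild-type and 4.41 in ABE-treated females, against 6.00 and 5.92 in males of these groups. The decrease was called in ABE-treated mice (-0.29, SE 0.08, adjusted p = 0.0014), though not with skeletal muscle genes as covariate (-0.26, adjusted p = 0.076) or with muscle, neutrophil, B cell and erythroid genes (-0.12, adjusted p = 0.66). It missed the threshold in saline-treated mice (-0.16, SE 0.08, adjusted p = 0.076), and was called there without wild-type replicate 11 (adjusted p = 0.043), the lowest of its group, and in a fit of these 2 groups alone (adjusted p = 0.0048). The difference between treatments was not called (-0.12, 95% interval -0.28 to 0.03), but it was on TPM as deposited (-0.50, adjusted p = 0.039), on which the median gene moved by -0.31.

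Piezo2, the channel of touch and position sense in sensory neurons, was present at a level far below that of Piezo1, with 378 to 1776 inferred reads per library. It ran from 0.0886 to 0.260 with a median of 0.166 in wild-type, from 0.0702 to 0.180 with a median of 0.120 in saline-treated and from 0.144 to 0.498 with a median of 0.257 in ABE-treated mice. All ABE-treated libraries exceeded the saline-treated median, and 11 of 12 exceeded the highest saline-treated library. Piezo2 was 2.19-fold higher with ABE than with saline (0.72, SE 0.12, adjusted p = 0.00021) and 1.71-fold higher than in wild type (0.52, SE 0.12, adjusted p = 0.00033), while saline-treated mice were not distinguished from wild type (-0.20, 95% interval -0.44 to 0.05). The rise over wild type was not called on TPM as deposited (0.18, adjusted p = 0.33) or in the fit with skeletal muscle genes as covariate (0.11, adjusted p = 0.62). The rise over saline was called in both (0.50, adjusted p = 0.019, and 0.49, adjusted p = 0.017). With the muscle, neutrophil, B cell and erythroid lists as covariates it was not called (adjusted p = 0.085). Of 6 nerve and Schwann cell genes tested, 4 were higher with ABE than with saline and 2 were not called, and the sum of the whole list ran from 3.46 to 22.3 in wild-type, 2.81 to 35.0 with saline and 4.07 to 19.6 with ABE. Of 8 tendon and periosteal fibroblast genes 6 were higher and 2 not called, with sums of 14.6 to 48.5, 11.9 to 40.9 and 22.3 to 67.9. The part of these cells in the Piezo2 result was not tested.

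The log2 ratio of Piezo1 to Piezo2, which no scaling of libraries can move apart from the added 0.1, averaged 3.79 ± 0.357 (SD, n = 12) with ABE, against 4.64 ± 0.296 with saline and 4.60 ± 0.246 in wild-type mice. It was lower with ABE than in wild type by -0.81 and than with saline by -0.85, each with the smallest p that the permutation test can give (2e-05, adjusted p = 0.00012). Saline-treated and wild-type mice differed by 0.03 (permutation p = 0.77). The ratio also moves with Piezo2, which rose with ABE, and so is no separate result for either gene.

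Trpv4 (chr5:114622152-114658421, minus strand) encodes a calcium channel opened by osmotic swelling and flow. It ran from 0.818 to 1.27 with a median of 1.07 in wild-type, from 0.548 to 1.12 with a median of 0.851 in saline-treated and from 0.581 to 1.36 with a median of 0.839 in ABE-treated mice. The ABE-treated libraries were spread on both sides of the wild-type range, with 5 below its lowest and 3 above its highest. The mean was 0.774 times that of wild type with saline (-0.34, SE 0.12, adjusted p = 0.0198) and 0.874 times with ABE (-0.22, SE 0.12, adjusted p = 0.104). Without ABE-treated replicate 5 the ABE difference was called (-0.27, adjusted p = 0.047). With the muscle, neutrophil, B cell and erythroid lists as covariates the saline difference was no longer called (-0.11, adjusted p = 0.74). All 10 chondrocyte markers were also lower in saline-treated than in wild-type mice. The part of chondrocytes in the Trpv4 result was not tested.

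Of 19 tested mechanosensitive channels and purinergic receptors, these 3 included, 2 rose and 9 fell in saline-treated mice, 9 rose and 8 fell in ABE-treated mice, and 10 were higher and 2 lower with ABE than with saline. P2ry2, a receptor for ATP, went from 0.733 ± 0.224 to 1.16 ± 0.457 and 2.75 ± 1.42, and Pkd2, polycystin 2, from 1.70 ± 0.425 to 2.22 ± 0.304 and 2.88 ± 0.533. Both were higher in ABE-treated than in saline-treated mice (1.12, adjusted p = 0.00057, and 0.35, adjusted p = 0.010). Tmem63a, an osmosensitive channel, fell from 4.70 ± 0.409 to 3.55 ± 0.265 and 3.29 ± 0.359. Trpc6 fell from 1.60 ± 0.417 to 1.05 ± 0.381 and 0.739 ± 0.523, and Trpv2 from 2.37 ± 0.251 to 1.85 ± 0.283 and 1.39 ± 0.375. The median difference of the list was -0.21 in saline-treated mice, -0.07 in ABE-treated mice and 0.13 between the treatments, against 0.01, -0.02 and -0.01 over all genes.

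**Figure D2:**
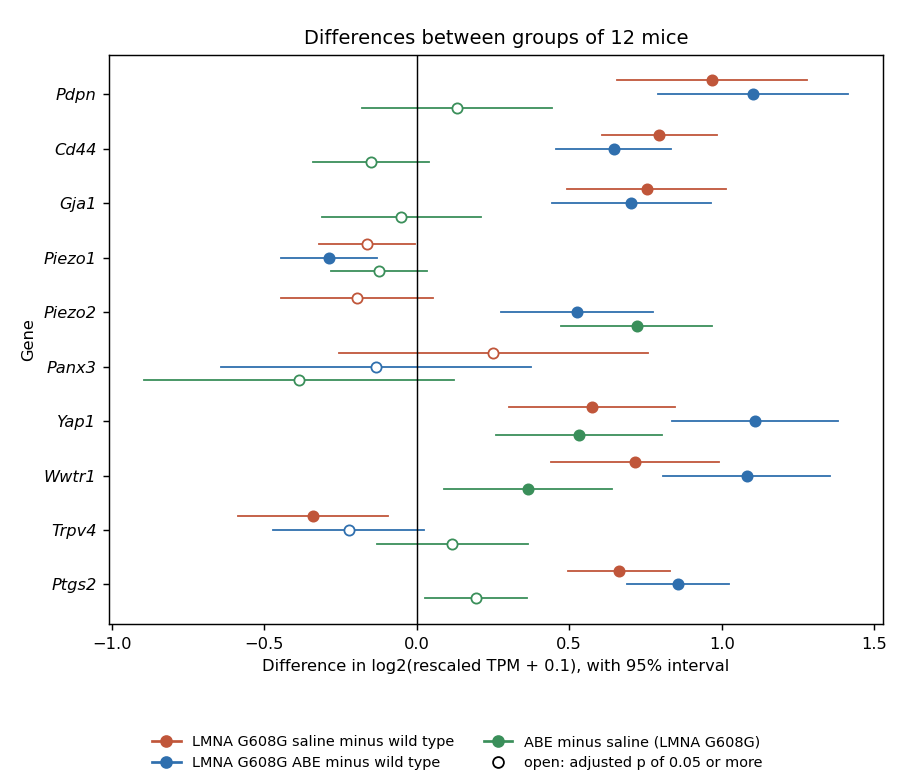
Difference of each gene in log2(rescaled TPM + 0.1) (horizontal axis) with its 95% interval for the 3 comparisons, filled where the adjusted p was under 0.05. Pdpn, Cd44 and Gja1 lay right of 0 against wild type in both groups and across 0 between the treatments, while Piezo2, Yap1 and Wwtr1 lay right of 0 between the treatments.

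Ptgs2 (chr1:150100031-150108227, plus strand) encodes cyclooxygenase 2, the inducible enzyme at the head of prostaglandin synthesis. It was scarce in wild-type tibiae, with 24 to 83 inferred reads per library and a level of 0.0235 to 0.0778 with a median of 0.0338. It ran from 0.0710 to 0.162 with a median of 0.123 in saline-treated mice and from 0.0916 to 0.256 with a median of 0.135 in ABE-treated mice. Of 12 saline-treated libraries 10, and of 12 ABE-treated libraries all, lay above the highest wild-type library. The mean level was 3.16 times that of wild type with saline and 4.05 times with ABE, which on the log2 scale with 0.1 added came to 0.66 (SE 0.08, adjusted p = 5.96e-08) and 0.86 (SE 0.08, adjusted p = 2.76e-10), smaller than the ratios because levels are near the added value. Ptgs2 passed the filter only through the LMNA G608G/G608G groups (wild-type mean 0.0376). The filter thus favoured a rise over wild type, and these p-values are descriptive. The difference between treatments was 0.19 (95% interval 0.03 to 0.36, adjusted p = 0.056). It was called when any 1 of 7 libraries was left out, namely saline-treated replicates 1, 2, 7 and 10 and ABE-treated replicates 4, 8 and 10, with an adjusted p between 0.017 and 0.0498.

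In the list of genes for prostaglandin synthesis, breakdown and reception, more genes fell than rose against wild type. Of 19 tested, Ptgs2 included, 5 rose and 10 fell in saline-treated mice, 5 rose and 12 fell in ABE-treated mice, and 1 was higher and 9 lower with ABE than with saline. Ptgis, prostacyclin synthase, rose from 5.82 ± 2.28 to 13.8 ± 2.66 and 14.3 ± 3.40, and Hpgd, which inactivates prostaglandins, from 2.14 ± 0.726 to 4.27 ± 1.40 and 3.82 ± 0.838. Ptges3, a cytosolic synthase and cochaperone, rose by 0.21 and 0.15. Tbxas1, thromboxane synthase, fell from 1.96 ± 0.229 to 1.02 ± 0.323 and 0.654 ± 0.316, and the receptors Tbxa2r and Ptgir from 1.65 ± 0.237 to 0.969 ± 0.332 and 0.673 ± 0.215 and from 1.93 ± 0.256 to 1.28 ± 0.263 and 0.969 ± 0.296. Looked up after these values were seen, all 4 receptors of prostaglandin E2 (Ptger1 to Ptger4) were lower than in wild type in saline-treated mice (-0.63, -0.46, -0.68 and -0.40) and in ABE-treated mice (-0.43, -0.90, -0.92 and -0.55), with an adjusted p of 0.00037 or less in each. The constitutive enzyme Ptgs1 likewise fell, by 0.54 on the log2 scale with saline and by 0.82 with ABE. Outside the receptors and Ptgs2, the called genes went both ways in saline-treated mice. Ptgis, Hpgd, Ptges3 and Slco2a1 were higher there than in wild type, and Ptgs1, Ptges, Tbxas1 and Abcc4 were lower.

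Yap1 and Wwtr1 were called higher in saline-treated than in wild-type mice and higher again in ABE-treated than in saline-treated mice. Yap1 (chr9:7931999-8004596, minus strand) ran from 0.618 to 1.76 with a median of 1.09 in wild-type, from 1.14 to 2.52 with a median of 1.63 in saline-treated and from 1.55 to 3.73 with a median of 2.43 in ABE-treated mice, of which 11 lay above the highest wild-type and 5 above the highest saline-treated library. The mean was 1.51 times that of wild type with saline (0.58, SE 0.13, adjusted p = 0.00061), 2.24 times with ABE (1.11, SE 0.13, adjusted p = 1.98e-08) and 1.48 times higher with ABE than with saline (0.53, SE 0.13, adjusted p = 0.0028). On TPM as deposited the rise with saline was not called (0.40, adjusted p = 0.082). The groups overlapped, but every saline-treated and ABE-treated library exceeded the wild-type median.

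Wwtr1 (chr3:57455649-57575910, minus strand) ran from 0.844 to 2.49 with a median of 1.57, from 1.83 to 3.90 with a median of 2.66 and from 2.22 to 4.58 with a median of 3.36 in the same order of groups. The differences were 0.72 (SE 0.14, adjusted p = 5.09e-05) for saline and 1.08 (SE 0.14, adjusted p = 3.75e-08) for ABE against wild type, and 0.37 (SE 0.14, adjusted p = 0.029) for ABE against saline. The last call was lost when any 1 of 6 libraries was left out (saline-treated replicates 4 and 5 and ABE-treated replicates 1, 5, 8 and 12, adjusted p of 0.051 to 0.060). On TPM as deposited the difference between treatments was -0.01 for Wwtr1 and 0.17 for Yap1 (adjusted p = 0.99 and 0.44), which is 0.31 and 0.48 above the median gene on that scale.

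The log2 ratio of Wwtr1 to Yap1 averaged 0.62 ± 0.0782 (SD, n = 12) with saline, against 0.48 ± 0.120 in wild-type mice and 0.46 ± 0.154 with ABE. It was higher in saline-treated than in wild-type mice (0.14, permutation adjusted p = 0.0074) and lower with ABE than with saline (-0.17, permutation adjusted p = 0.0073), while ABE-treated and wild-type mice differed by -0.03 (permutation adjusted p = 0.69). Pdpn to Cd44, the pair of surface proteins, had ratios of -3.13 ± 0.596, -2.96 ± 0.322 and -2.68 ± 0.418, and no difference passed the adjusted threshold by permutation, the largest being 0.46 between ABE-treated and wild-type mice (adjusted p = 0.072).

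**Figure D3:**
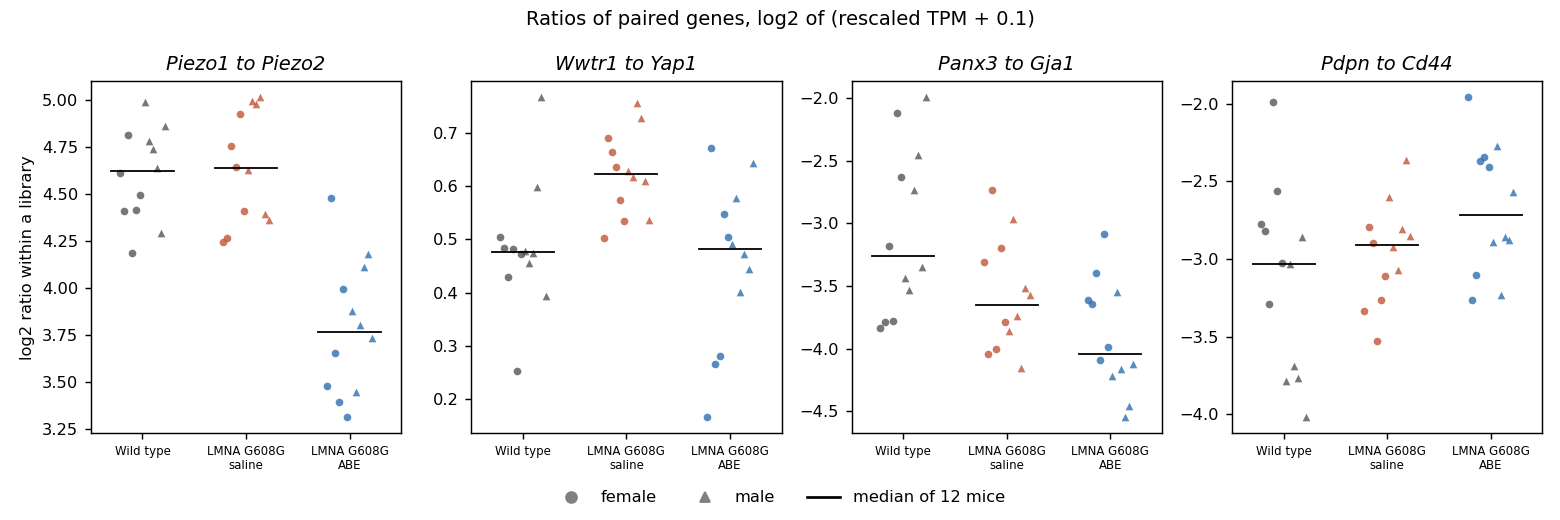
Log2 ratios of 4 gene pairs within each library (vertical axes, not starting at 0) by group, circles for females, triangles for males and bars at the median of 12 mice. The Piezo1 to Piezo2 ratio averaged 3.79 in ABE-treated mice against 4.60 and 4.64 in the other groups.

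The regions 250 bases upstream of the start site were read from RefSeq for the 8 members that matched, on build GRCm38.p6. The 4 shown are those of the pair of coactivators, which rose in both LMNA G608G/G608G groups, and of the channel genes Piezo1 and Trpv4, which did not rise. Letters are 5′ to 3′ on the strand of the gene, and capitals mark GGAATG, the core that TEAD factors bind, and TATAAA, which places the start of transcription in some promoters, on either strand. Further motifs were searched for and are given after the sequences.
Yap1, chr9:8004597-8004846, minus strand: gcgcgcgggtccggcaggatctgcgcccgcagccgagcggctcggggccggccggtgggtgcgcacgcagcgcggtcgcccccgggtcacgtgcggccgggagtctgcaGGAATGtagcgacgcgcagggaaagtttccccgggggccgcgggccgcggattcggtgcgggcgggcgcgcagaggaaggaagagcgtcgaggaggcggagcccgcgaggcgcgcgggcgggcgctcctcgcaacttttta
Wwtr1, chr3:57575911-57576160, minus strand: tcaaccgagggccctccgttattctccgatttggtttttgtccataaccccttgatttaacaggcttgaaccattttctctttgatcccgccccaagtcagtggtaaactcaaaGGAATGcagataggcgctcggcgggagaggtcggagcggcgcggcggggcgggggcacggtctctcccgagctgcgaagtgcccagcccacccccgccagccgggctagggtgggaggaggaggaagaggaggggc
Piezo1, chr8:122551330-122551579, minus strand: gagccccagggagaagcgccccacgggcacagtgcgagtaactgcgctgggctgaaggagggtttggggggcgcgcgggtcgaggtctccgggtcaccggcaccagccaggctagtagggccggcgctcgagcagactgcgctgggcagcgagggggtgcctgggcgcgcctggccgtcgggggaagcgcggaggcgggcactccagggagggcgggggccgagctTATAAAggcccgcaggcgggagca
Trpv4, chr5:114658422-114658671, minus strand: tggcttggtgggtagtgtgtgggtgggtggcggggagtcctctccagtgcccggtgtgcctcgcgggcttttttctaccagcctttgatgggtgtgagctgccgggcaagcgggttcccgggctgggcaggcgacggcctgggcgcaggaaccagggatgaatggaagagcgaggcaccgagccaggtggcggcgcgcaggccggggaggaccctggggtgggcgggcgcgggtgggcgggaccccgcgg
Positions are counted back from the start, with -1 the base before it. GGAATG occurred in Yap1 at -141 to -136, in Wwtr1 at -136 to -131 of the first of its 2 annotated starts, and in none of the remaining 6 members, where 12.6% of 32851 promoter regions of this length hold it. Among those 6 were Pdpn, Cd44, Gja1 and Ptgs2, which also rose in both LMNA G608G/G608G groups. TATAAA occurred in Piezo1 at -24 to -19 (12.4% of all regions), and TGANTCA, the site of AP-1, in Gja1 at -19 to -13 (6.75%). GGGCGG, the SP1 core, was found in Piezo1, Yap1, Wwtr1, Trpv4 and Ptgs2 (32.7%), CACGTG, an E-box, in Pdpn and Yap1 (6.02%), and TGACGTCA, the cyclic AMP response element, in none (1.55%). SP1 and TATA matches did not overlap. The share of G and C was 76.4% in Yap1, 74.0% in Piezo1, 72.0% in Trpv4, 61.6% in Wwtr1 and Ptgs2, 56.4% in Cd44, 50.0% in Gja1 and 43.2% in Pdpn, with a median of 52.4% over all regions. Over the exons counted, G and C made up 58.6% of Piezo1 and 58.2% of Trpv4 and 40.1% to 48.8% of the other 8. With a trend in GC content and length removed, an alternative added after the data were seen, the calls of the 10 genes were those given here, but for Piezo1, which was then lower with ABE than with saline (-0.23, adjusted p = 0.0087). The match of letters says nothing of whether a factor binds there.

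Of 19 genes for Hippo kinases, their adaptors and TEAD factors, 10 rose and 3 fell in saline-treated mice, 13 rose and 4 fell in ABE-treated mice, and 7 were higher and 4 lower with ABE than with saline. The angiomotins, scaffolds that bind YAP, were among those that rose. Amot went from 0.959 ± 0.394 to 2.63 ± 1.26 and 4.07 ± 1.87, Amotl1 from 3.85 ± 1.39 to 6.68 ± 2.94 and 10.6 ± 3.03, and Amotl2 from 2.70 ± 0.584 to 4.60 ± 0.722 and 5.89 ± 1.22. Stk4, a Hippo kinase, went the other way, from 7.10 ± 1.11 to 5.65 ± 1.02 and 4.47 ± 1.28. So did Mob1b, an adaptor of the pathway, from 1.18 ± 0.135 to 0.928 ± 0.102 and 0.871 ± 0.0974, and the upstream kinase Taok3 from 2.37 ± 0.290 to 1.93 ± 0.302 and 1.47 ± 0.353. Of the TEAD factors, looked up after these values were seen, Tead1 went from 1.22 to 2.01 and 4.44 rescaled TPM and was higher with ABE than with saline (1.12, adjusted p = 0.0012), and Tead3 and Tead4 rose in both groups against wild type. The median sum of skeletal muscle genes rose in the same order of groups (1055, 2265 and 6651). The part of muscle RNA in the values of this list was not tested.

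Of 22 genes known as targets of YAP and TAZ, 12 rose and 3 fell in saline-treated mice and 15 rose and 6 fell in ABE-treated mice, with median differences of 0.39 and 0.58. With ABE against saline, 4 were higher and 4 lower, with a median of 0.16 against -0.01 over all genes. Tgfb2, a growth factor, went from 0.758 ± 0.323 in wild-type to 3.97 ± 0.905 with saline and 5.30 ± 1.5 with ABE. Ccn1, a matricellular protein, went from 4.43 ± 2.08 to 12.6 ± 3.88 and 16.9 ± 4.93, and Ankrd1, an ankyrin repeat protein of muscle and stressed cells, from 0.275 ± 0.205 to 1.65 ± 1.05 and 1.67 ± 0.900. Axl, a receptor kinase, fell from 12 ± 1.46 to 8.01 ± 2.51 and 7.46 ± 1.61, and the kinase Nuak2 from 1.53 ± 0.295 to 1.20 ± 0.259 and 0.873 ± 0.182. The target that reached the highest level, Ccn2, went from 11.8 ± 4.38 to 15.5 ± 4.44 and 20.4 ± 6.19. In limma Ccn2 was called with ABE against wild type (0.81, adjusted p = 0.00023). It was not called with saline (0.43, adjusted p = 0.051) or between the treatments (0.38, adjusted p = 0.090). Tgfb2, Ccn1 and Ankrd1 were not called between the treatments either (adjusted p = 0.074, 0.092 and 0.81). The part of muscle RNA in the values of these targets was not tested.

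**Figure D4:**
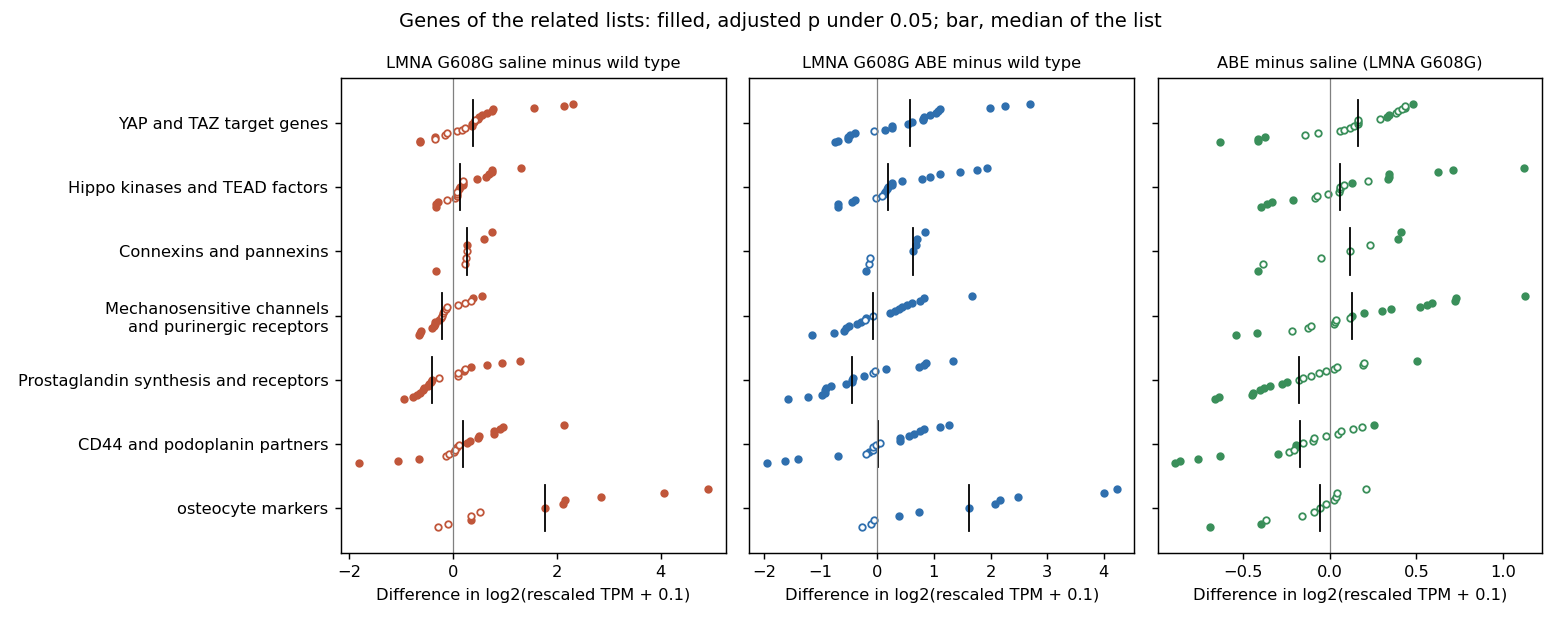
Differences in log2(rescaled TPM + 0.1) (horizontal axes, with ranges of their own) of each tested gene of the related lists, filled where the adjusted p was under 0.05, with a bar at the median of the list. Targets of YAP and TAZ had medians of 0.39, 0.58 and 0.16 in the 3 comparisons and the prostaglandin list -0.40, -0.44 and -0.18.

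Cell content moved with these results, and its part in them was not tested beyond fits with marker lists as covariates. With the mean of the muscle genes in the model, the rises against wild type of Pdpn, Cd44, Gja1, Yap1, Wwtr1 and Ptgs2 were still called in both groups, with Yap1 at 0.27 (adjusted p = 0.0017) and Wwtr1 at 0.43 (adjusted p = 0.00015) in saline-treated mice. In this and the following fits the p-values of Ptgs2 against wild type are descriptive, because of the filter. Between the treatments, however, Yap1 differed by 0.14 (adjusted p = 0.25) and Wwtr1 by 0.00 (adjusted p = 0.996), and neither was called. Piezo2 was called lower in saline-treated than in wild-type mice in this fit (-0.38, adjusted p = 0.0055). Of 12 neutrophil genes 2 rose with saline and 3 fell with ABE against wild type, of 12 B cell genes 9 and 10 fell, and of 11 erythroid genes 1 and 10 fell. With the neutrophil, B cell and erythroid lists added, Piezo2, Yap1 and Wwtr1 differed between the treatments by 0.38, 0.10 and -0.04 and were not called (adjusted p = 0.085, 0.31 and 0.84). Cd44, Yap1, Wwtr1 and Ptgs2 were still called in both groups against wild type, Gja1 in saline-treated mice, and Pdpn in neither (0.55 and 0.38, adjusted p = 0.079 and 0.29). With the osteocyte markers as covariate, the saline differences of Pdpn, Gja1, Yap1 and Wwtr1 turned to -0.46, -0.41, -0.18 and -0.26 and were not called, Cd44 and Ptgs2 stood at 0.39 and 0.44 and were not called (adjusted p = 0.21 and 0.12), and Piezo1, Piezo2 and Trpv4 were called lower (-0.79, -0.92 and -1.16). The osteocyte marker sum did not overlap between wild-type and LMNA G608G/G608G libraries, so in this fit marker level and genotype are largely one.

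**Figure D5:**
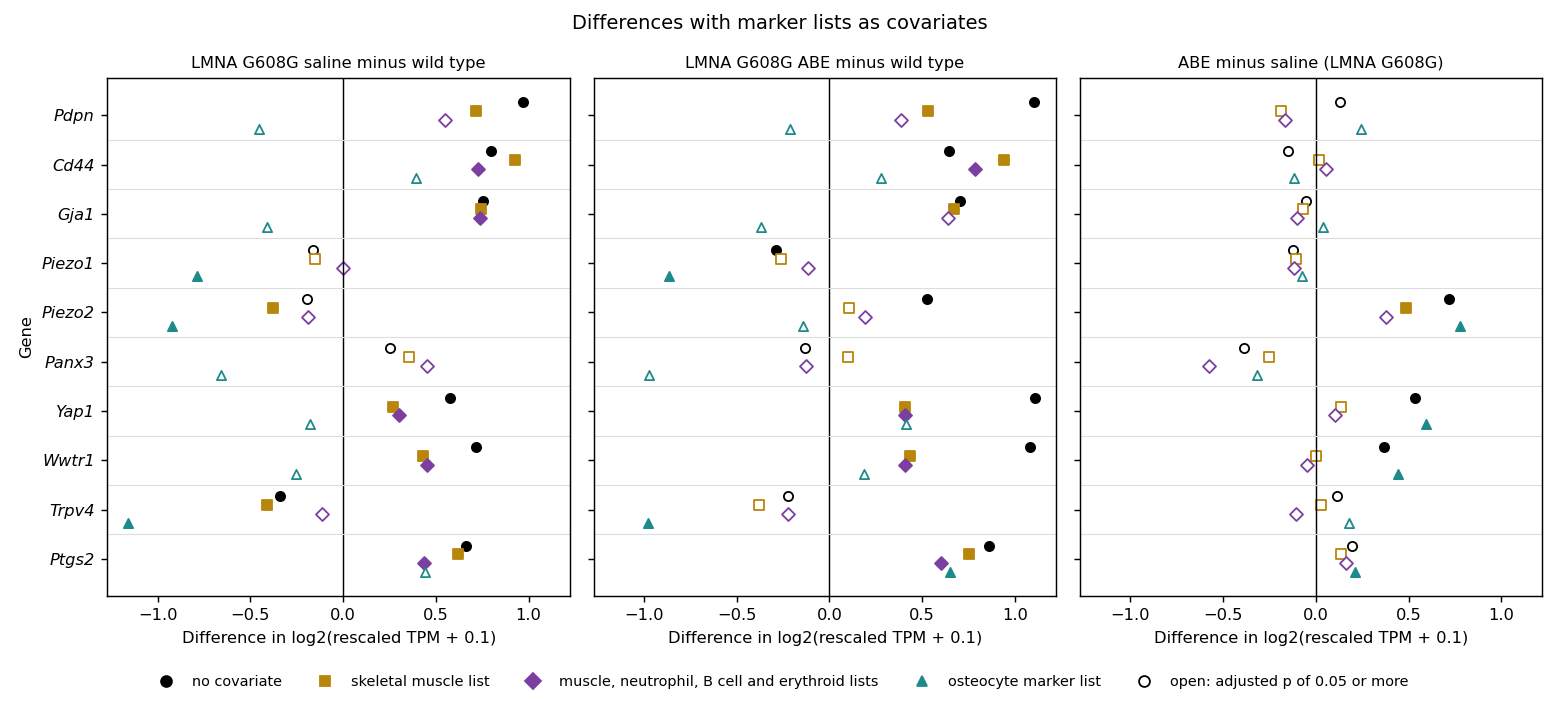
Differences in log2(rescaled TPM + 0.1) (horizontal axes) without a covariate and with the mean of marker lists as covariates, filled where the adjusted p was under 0.05. Between the treatments Yap1 went from 0.53 to 0.14 and Wwtr1 from 0.37 to 0.00 with the muscle list, and with the osteocyte list Pdpn went from 0.97 to -0.46 in saline-treated against wild-type mice.

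With saline, 4 of the 6 genes that rose over wild type had larger estimates in males, whereas Cd44 differed by 0.70 in males and 0.89 in females, and Ptgs2 by 0.66 in each sex. Pdpn went from 0.655 ± 0.221 (SD, n = 6) to 1.92 ± 0.303 in males and from 1.03 ± 0.341 to 1.46 ± 0.317 in females of the saline-treated group, with differences of 1.45 (adjusted p = 6.8e-06) and 0.48 (adjusted p = 0.080, not called) in the fits of each sex. Yap1 differed by 0.91 in males and 0.24 in females, Wwtr1 by 1.03 and 0.40, and Gja1 by 1.03 and 0.47, of which the female values were not called (adjusted p = 0.41, 0.106 and 0.079). The difference between the sexes itself passed the threshold for none of the 10 genes in limma, where 241 of all 22546 genes tested were called. It was largest for Pdpn (-0.97, SE 0.26, adjusted p = 0.053). Wild-type females had a higher mean than wild-type males for Pdpn, Yap1, Wwtr1 and Gja1. In wild-type mice the median sum of osteocyte markers was 56.6 in females and 33.3 in males, that of skeletal muscle genes 1217 and 892, and that of pan-leukocyte genes 90.8 and 135. The part of these in the sex difference was not tested. Piezo1 differed from wild type by -0.56 in ABE-treated females (adjusted p = 0.00049) and by -0.02 in ABE-treated males (adjusted p = 0.83). Of ABE-treated mice, females had the lower Piezo1 level (3.48 to 5.34, against 4.95 to 6.53 in males). Whether the difference between ABE-treated and wild-type mice differed by sex was not tested. The sex difference in the effect of ABE against saline was -0.34 for Piezo1 (adjusted p = 0.22 in limma). It was called for 0 of 10 genes and for 13 of all genes tested.

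Genes whose level followed a member most closely across the 36 libraries, after the mean of each group and sex was removed, were found among 10041 or 10042 genes with a mean of at least 1, and the correlations below are descriptions over libraries that share their scaling. Yap1 went with Slc35e4, Rbfox2 and Erc1 (Pearson's r of 0.97 for each), and Wwtr1 with Lamb2, Epn2 and Zcchc24 (0.94 for each). Gja1 went with Rcn1, Cdh2 and Gpx8 (0.92, 0.90 and 0.90), of which Cdh2 encodes N-cadherin. Pdpn went with Jam2, Pls3 and Kank1 (0.89, 0.87 and 0.84), Cd44 with Hacd2, Golim4 and Strn (0.85, 0.83 and 0.81), and Piezo1 with Nisch, Kif13b and Phc2 (0.84, 0.83 and 0.82). For Piezo2 these were Phldb1, Thbs3 and Tshz2 (0.82 for each), for Trpv4 Itga10, Lncppara and Fyn (0.85, 0.80 and 0.78), and for Panx3 Papss2, Pth1r and Cd63 (0.79, 0.78 and 0.78), Pth1r being the receptor of parathyroid hormone. Ptgs2 had no close companion, with Gm37390, Ccdc186 and Gm48690 at 0.49, 0.47 and 0.47.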

How the data were processed

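Poly(A) RNA of 36 tibiae was sequenced in paired ends with a stranded kit. Per the labels and the study's methods, the authors aligned reads to GRCm38 with STAR 2.73a (as the submitters' notes write it) and counted GENCODE genes. They deposited TPM for 56246 genes with each gene's length and GC content as a fraction. How TPM were made is not given in the sources used here. In the deposited TPM, each value was a whole number of reads over (gene length - 218 bp), scaled to a constant per library (100% of values within 0.01 read), and reads on genes were inferred from this.

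The members and the gene lists were chosen with earlier results of these data known. Of genes sharing a symbol the one with the highest mean was used, and a further Pdpn entry on an alternate scaffold was at 0. TPM were divided by the median ratio of each library over 23632 genes above 0 in every library. This matters because genes of 219 bp or less held 84.7% to 96.6% of deposited TPM. Genes with a mean of at least 0.1 rescaled TPM (22546) were fitted on log2(rescaled TPM + 0.1) with limma 3.58.1 (R 4.3.3) over all libraries, with sex as a covariate, and p-values were adjusted by Benjamini-Hochberg over all of them. The study's covariate was kept. Its count model was not run, since the deposited values are TPM, and the inferred reads were tested with limma-voom as an alternative. Ratios of gene pairs were compared by two-sided permutation with 100000 resamples, adjusted over 12 tests. The scripts were tested on simulated data. No pair of libraries was a duplicate. The study calls the groups littermates, but which mice shared a litter is not given in the sources used here, so litter could not be modelled and p-values measure the spread between these mice.

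Besides the members, up to 3 higher and 3 lower genes per list were named, those with the largest called difference between saline-treated and wild-type mice and a mean of at least 1 in a group, and the 3 genes most correlated with each member. Lists share Amotl2, Lats2, Kcnk2 and Itgb3. Gene positions come from GENCODE vM21, which matched 54573 identifiers, and promoters from RefSeq. Tables were handled with pandas 2.3.3 and numpy 2.4.6 under Python 3.11.15, permutations with scipy 1.17.1, and plots with matplotlib 3.10.9.

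Alternatives were other pseudocounts and filters, TPM as deposited, quantile normalization, no sex covariate, the compared groups alone, either sex alone, array weights, limma-voom on inferred reads, marker lists as covariates, and each library left out. Medians over 50 bins of GC content, and then of gene length, were also subtracted, which was added after the data were seen. The values of 1 gene of the lists are not reported here.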

Additional observations from a re-analysis of the deposited data

Results flagged for a closer look

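Each gene was examined in the 6 females and the 6 males of each group for a single mouse far from the rest, by Dixon's test at the 95% level, in 60 sets of 6 libraries of which chance marks about 1 in 20, or 3. In 2 sets a library stood apart. Wild-type female replicate 5 had the lowest Piezo1 level of its sex, 5.80 rescaled TPM, with the nearest at 6.40 and the highest at 6.72, a gap of 0.663 of the whole range. ABE-treated female replicate 2 had the lowest Piezo2 level, 0.144, with the nearest at 0.240 and the highest at 0.293, a gap of 0.697 of the range. The difference between ABE-treated and saline-treated mice in Piezo2 was called with each library left out in turn.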

How the results depend on the processing

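Over 531 values of the 10 genes and their comparisons under other settings, 461 kept direction and side of the threshold, 33 lost and 14 gained a call, and 23 turned in sign. With 1 library left out, 1063 of 1080 values kept both. TPM as deposited turned the balance of all calls, from 5705 higher and 5565 lower of 11270 to 1460 and 4833 of 6293 for saline against wild type, from 7412 and 7655 to 2141 and 12452 for ABE against wild type, and from 4852 and 4868 to 774 and 8082 for ABE against saline. On that scale the ABE minus saline differences of Pdpn, Wwtr1 and Trpv4 were -0.22, -0.0056 and -0.20, and the sex interactions gave 1 gene in place of 241 for saline against wild type, with Panx3 and Ptgs2 at 0.023 and 0.043 there and Pdpn, Panx3, Yap1 and Wwtr1 at -0.38, -0.10, -0.50 and -0.56 between the treatments. The cause was not tested.

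Females alone gave 4713 genes and 3 members for saline against wild type and 5589 genes between the treatments, and males alone gave 4306 there, with fewer libraries in each fit. In males Trpv4 turned to 0.056 for ABE against wild type, and Cd44 and Piezo1 to 0.026 and 0.045 between the treatments. The muscle list as covariate left 6886 genes for ABE against wild type and 796 genes and 1 member between the treatments, with Panx3 at 0.10 in the former and Pdpn and Cd44 at -0.19 and 0.017 in the latter. The 4 lists left 4455, 3124 and 972 genes in the 3 comparisons, 4 members for ABE against wild type and 0 between the treatments, with Piezo1 at 0.00091 for saline against wild type and Pdpn, Cd44, Wwtr1 and Trpv4 at -0.17, 0.057, -0.045 and -0.11 between the treatments. The osteocyte list left 3986 and 5928 genes and 3 members in each comparison with wild type, with Pdpn, Gja1, Panx3, Yap1 and Wwtr1 at -0.46, -0.41, -0.66, -0.18 and -0.26 for saline, Pdpn, Gja1 and Piezo2 at -0.21, -0.37 and -0.15 for ABE, and Gja1 at 0.040 between the treatments. The cause was not tested.

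For the ratios, a pseudocount of 0.5 turned Piezo1 to Piezo2 (-0.076) and Pdpn to Cd44 (-0.044) for saline against wild type and Wwtr1 to Yap1 (0.026) for ABE against wild type, and Panx3 to Gja1 for saline was then called (-0.57). In females Wwtr1 to Yap1 between the treatments (-0.19) and Panx3 to Gja1 for ABE (-0.41) were not called, and Pdpn to Cd44 for saline turned to -0.41. In males Wwtr1 to Yap1 for saline was not called (0.12), Pdpn to Cd44 was called for saline (0.76) and for ABE (0.74), and it turned to -0.015 between the treatments.

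Leaving out 1 library gave 10525 to 11906, 14745 to 15362 and 8377 to 10892 genes and 7 to 8, 8 to 9 and 2 to 4 members. Panx3 for ABE against wild type ran from -0.25 to 0.016, positive without wild-type replicate 9, Gja1 between the treatments from -0.087 to 0.0087, and the ratios of Piezo1 to Piezo2 and Panx3 to Gja1 for saline from -0.0061 to 0.067 and from -0.58 to -0.41, and of Pdpn to Cd44 for ABE from 0.38 to 0.56, each against wild type. Without the 3 LMNA G608G/G608G libraries whose identifiers hold the letters WT, 7, 8 and 3 members were called, as with them. No paired analysis was possible because the labels give each mouse an identifier of its own and replicate numbers follow the order of samples. Depth limits Ptgs2 most, with 24 reads in the lowest library.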
